A study of Mus musculus with 13 samples.

Results

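Pax7, Myf5, Myod1, Myog, Myf6, Mymk, Cdh15, Mef2a, Mef2c and Mef2d are genes of the muscle stem cell, of the step from myoblast to fibre and of the fibre's own transcription programme. They were chosen by name, and all 10 were found among the 19838 genes of each count table. They were followed in 13 libraries of gastrocnemius (the calf muscle) and aorta from mice aged 88 weeks, of strain FVBxC57BL/6. The dNdK mice had the genotype GFP-FOXM1dNdKtg/+Rosa26-rtTAtg/+, which adds a transgene for FOXM1, a transcription factor of the cell cycle, joined to GFP, with 3 gastrocnemius and 2 aorta libraries. The Rosa26 mice had the genotype GFP-FOXM1dNdK-/-Rosa26-rtTAtg/+, with 4 gastrocnemius and 4 aorta libraries. Both genotypes carried Rosa26-rtTA, the transactivator that needs doxycycline, which is placed at a locus active in most cell types. The labels name no doxycycline treatment, sex or sequencing run, and nothing in them says that the libraries of a group came from separate animals, so p-values measure the spread between these libraries.

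A skeletal muscle fibre is renewed by satellite cells, stem cells under its basal lamina that are marked by the paired box factor Pax7. When they are activated they turn on the myogenic bHLH factors, first Myf5 and MyoD, then myogenin (Myog) as they leave the cell cycle, and Myf6 (MRF4) in the fibre. These factors bind DNA at the E-box, CANNTG, with E proteins as partners, and act with the MEF2 factors Mef2a, Mef2c and Mef2d, which bind AT-rich sites. Myomaker (Mymk) is the membrane protein that lets myoblasts fuse, and M-cadherin (Cdh15) joins the satellite cell to its fibre. MEF2 genes are also used in vessel wall, heart and immune cells.

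On the mouse genome (GRCm38.p6, RefSeq annotation) Myog lies on chromosome 1, Mymk on 2, Mef2d on 3, Pax7 on 4, Myod1 and Mef2a on 7, Cdh15 on 8, Myf5 and Myf6 on 10 and Mef2c on 13. Myf5 and Myf6 are neighbours on the same strand with 5920 bases between them. Promoter windows, from 250 bases before to 50 bases after a gene's start, were found in the RefSeq table for 7 of the 10 members, and Myod1, Myf6 and Mymk had no entry. Windows are shown for Myog, the member with the highest coefficient of variation among dNdK muscles, for Cdh15, the member whose genotypes did not overlap there, and for Mef2c, the member with the smallest p. Capitals mark the E-box (CANNTG), the core of the MEF2 site (TA, then 4 bases that are each A or T, then TA) and the MEF3 site (TCAGGTT), each searched on both strands. No marked matches overlap.
Myog, chr1:134289754-134290053, + strand: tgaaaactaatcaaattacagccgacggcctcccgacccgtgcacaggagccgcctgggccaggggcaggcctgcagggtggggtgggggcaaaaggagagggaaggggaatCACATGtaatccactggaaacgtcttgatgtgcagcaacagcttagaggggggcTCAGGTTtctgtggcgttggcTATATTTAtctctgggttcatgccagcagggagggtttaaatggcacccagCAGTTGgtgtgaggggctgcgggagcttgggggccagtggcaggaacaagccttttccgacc
Cdh15, chr8:122848124-122848423, + strand: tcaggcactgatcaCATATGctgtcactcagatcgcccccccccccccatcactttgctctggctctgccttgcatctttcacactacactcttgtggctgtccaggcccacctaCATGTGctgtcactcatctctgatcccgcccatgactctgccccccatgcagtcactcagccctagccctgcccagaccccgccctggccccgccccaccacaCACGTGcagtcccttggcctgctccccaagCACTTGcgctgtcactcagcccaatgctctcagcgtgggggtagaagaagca
Mef2c, chr13:83503784-83504083, + strand: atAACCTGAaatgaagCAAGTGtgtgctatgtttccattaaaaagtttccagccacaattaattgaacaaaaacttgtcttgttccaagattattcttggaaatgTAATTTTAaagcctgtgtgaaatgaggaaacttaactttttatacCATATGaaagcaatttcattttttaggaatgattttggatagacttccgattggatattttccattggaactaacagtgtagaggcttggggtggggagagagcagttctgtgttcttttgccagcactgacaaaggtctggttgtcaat

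Counted from the start, with -1 the base before it, the Myog window held E-boxes at -138 and -12, a MEF2 core at -63 and a MEF3 site at -84. The Cdh15 window held 4 E-boxes, at -236, -135, -32 and -2, and none of the other motifs. The Mef2c window shown, of 3 in the table the one with the most matches, held E-boxes at -234 and -100, a MEF2 core at -145 and a MEF3 site on the opposite strand at -248. Of its other windows 1 held a single E-box and 1 none of the motifs. The Mef2a window held a MEF2 core at -1, and those of Mef2d, Pax7 and Myf5 held none of these letters. Over all 32851 windows in the table, 72.3% held an E-box, 9.32% a MEF2 core and 4.07% a MEF3 site. These are matches of letters, and no binding was measured.

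The libraries held 3919526 to 13683952 reads in genes, and levels are given as CPM, a gene's reads scaled to the library's total. The floor of detection was set at 3 reads, or 0.219 to 0.765 CPM. Each gene is read by an amplicon of its own, so CPM compare libraries and not genes, and without molecular identifiers intervals cover counting error only. Foxm1 had 1, 0 and 3 reads in dNdK and 1, 1, 1 and 3 in Rosa26 gastrocnemius, and 2 and 5 in dNdK and 3, 24, 13 and 2 in Rosa26 aorta, and the labels do not say if its amplicon can read the transgene. Fast fibre markers summed to 180094 to 243935 CPM in dNdK and 227652 to 236810 CPM in Rosa26 gastrocnemius, against at most 25.5 CPM in any aorta library. White fat markers summed to 10643 CPM in gastrocnemius dNdK 3 and to 527 to 1161 CPM in the other 6 muscles, and Adipoq, the adipocyte hormone, stood at 129 CPM there and at 0.736 to 6.89 CPM elsewhere in muscle. In aorta the brown fat gene Ucp1 stood at 5525 CPM or more in every library, Myh11 of smooth muscle at 71.9 to 103 CPM, and the smooth muscle marker Tagln was near 0. Heart myosin Myh6 stood at 685 CPM in aorta dNdK 2 and at 911 and 394 CPM in aorta Rosa26 1 and 2, against at most 2.13 CPM in the other 3.

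The libraries also fell into 2 sets by the share of a gene's reads on the first strand, over 2073 genes with at least 200 reads in each library. For Mef2a that share was 11.1% to 15.4% in the low set, which holds gastrocnemius dNdK 1 and 3, gastrocnemius Rosa26 1 and 4 and aorta Rosa26 3 and 4. It was 33.3% to 48.4% in the high set, which holds the other 7 libraries. Myf6 differed between the sets too, with 40.6% to 42.7% in the high set and 16.2% to 27.5% in the low set. Both sets hold dNdK and Rosa26 muscles. The high set has only 1 dNdK muscle, so groups with replicates can be compared in the low set alone, and values within the high set rest on that library. Both dNdK aortas are in the high set. The labels do not say what the sets are.

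In Rosa26 mice, the stem cell and myogenic genes were found in gastrocnemius and were at or near 0 in aorta, while the MEF2 genes were read in both. Mef2a, Mef2c and Mef2d were higher in gastrocnemius with the edgeR quasi-likelihood test, where 27.5% of the 11058 genes tested were called higher and 62.5% had an unadjusted p under 0.05. Their groups did not overlap, as for 61.8% of all genes tested. Pax7 was too low to be tested. Myf5, Myod1, Myog, Myf6, Mymk and Cdh15 passed the filter on low counts through gastrocnemius alone, which fixed their direction, so they are described by their reads and not by the test.

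Pax7 had 50 reads over the dNdK and 57 over the Rosa26 gastrocnemius libraries and none in the 6 aortas. Against 3 reads over the aortas of the same genotype that is at least 10.3-fold higher in dNdK and at least 15.9-fold higher in Rosa26 gastrocnemius. Myod1, which commits cells to the muscle lineage, had 1757 and 2627 reads in dNdK and Rosa26 gastrocnemius and none in any aorta, at least 363-fold and at least 731-fold higher. So these members have no level in aorta that could be compared between genotypes.

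Myf5 had 97 reads in Rosa26 gastrocnemius and 1 in Rosa26 aorta, a ratio of pooled CPM of 81.0 (95% exact counting interval 14.2 to 3231). Myog had 941 reads in the 4 muscles and 1 in the 4 aortas, a ratio of 785 (141 to 31058). Myf6, the fibre's own bHLH factor, had 15013 and 1, a ratio of 12532 (2249 to 495021). Single reads of this kind were the whole aorta signal of all 3 genes in Rosa26. In dNdK mice Myf5 and Myf6 had no read in the 2 aortas and Myog had 1.

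Mymk had 239 reads in Rosa26 gastrocnemius and 2 in Rosa26 aorta, a ratio of 99.8 (27.3 to 828), and 58 and 3 in the dNdK tissues, a ratio of 12.0 (3.90 to 59.8). Cdh15 had 1150 and 6 reads in Rosa26, a ratio of 160 (73.3 to 437), and 515 and 10 in dNdK, a ratio of 31.9 (17.2 to 66.9). The fusion and adhesion genes thus reached 0.748 CPM at most in any aorta.

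The 3 MEF2 genes followed a different course, with reads in all 13 libraries. Mef2c stood at 489 ± 92.5 CPM in Rosa26 gastrocnemius and 22.1 ± 11.7 CPM in Rosa26 aorta (SD, n = 4 each), a log2 fold change of 5.35 (SE 0.36, edgeR adjusted p = 1.10e-06). Mef2d stood at 44.3 ± 11.7 and 18.0 ± 3.39 CPM in the same groups, a log2 fold change of 2.18 (SE 0.26, adjusted p = 5.10e-05). Mef2a had the smallest gap of the 3, with 179 ± 28.4 CPM in gastrocnemius and 96.5 ± 18.5 CPM in aorta, a log2 fold change of 1.76 (SE 0.19, adjusted p = 2.29e-05). The scaling bears on this comparison, since TMM moved the median of all genes by 0.88 on the log2 scale. With library size alone Mef2a was 0.88 higher on that scale (adjusted p = 0.0494), and Mef2c and Mef2d also stayed higher.

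**Figure D1:**
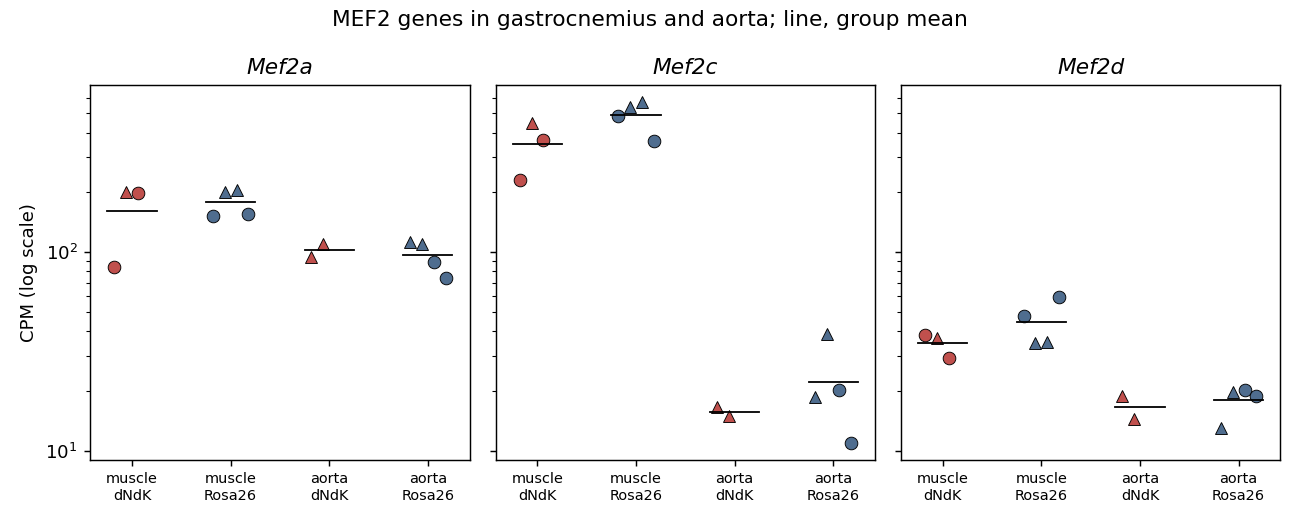
CPM on a log scale of Mef2a, Mef2c and Mef2d in the 4 groups, 1 point per library (circles, low strand-share set, triangles, high set) and a line at the group mean. Mef2c lies at 232 to 571 CPM in muscle and at 11.0 to 38.6 CPM in aorta, while the Mef2a point of gastrocnemius dNdK 1, at 84.4 CPM, lies among the aorta points.

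Between genotypes in gastrocnemius none of the 10 members passed the test. That is 0 of 10 members, where 0% of 10491 genes tested were called. At an unadjusted p under 0.05 there were 792 genes (7.55%), among them 1 member, Mef2c. DESeq2 called 7 genes and no member. Of the 10 estimates 3 were higher and 7 lower in dNdK. Their median was -0.26 on the log2 scale, against 0.026 over all genes tested. Every adjusted p below for this comparison is from the edgeR quasi-likelihood test.

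Pax7, the satellite cell factor, stood at 0.589, 2.07 and 1.75 CPM in dNdK 1 to 3 and at 1.75, 1.36, 0.686 and 1.77 CPM in Rosa26 1 to 4. The genotypes covered the same range, and the lowest library, dNdK 1, rests on 4 reads. The log2 fold change was -0.02 (SE 0.55, adjusted p = 0.994), and with so few reads a difference within that error was not detectable. In bulk tissue fewer satellite cells and less Pax7 RNA per cell cannot be told apart. Pax3, the related paired box factor, averaged 2.08 ± 1.45 CPM in dNdK (SD, n = 3) and 2.69 ± 0.670 CPM in Rosa26 (n = 4), with a log2 fold change of -0.46 (SE 0.61, adjusted p = 0.891).

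Myf5 stood at 2.06, 2.91 and 4.53 CPM in dNdK and 1.61, 2.30, 1.98 and 2.98 CPM in Rosa26 gastrocnemius. Only dNdK 3 lay above the Rosa26 range, and the log2 fold change was 0.37 (SE 0.39, adjusted p = 0.861). Myod1 stood at 73.8, 35.5 and 64.2 CPM in dNdK and 84.2, 38.2, 67.4 and 62.2 CPM in Rosa26. The lowest library of each genotype was its second, both of the high strand-share set, and the log2 fold change was -0.24 (SE 0.34, adjusted p = 0.904). Without dNdK 2 the Myod1 estimate was 0.01, so its sign rests on that library.

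By the coefficient of variation Myog was the member that varied most among dNdK muscles and least among Rosa26 muscles. It stood at 52.4, 7.89 and 13.4 CPM in dNdK 1 to 3, a coefficient of variation of 98.7%. In Rosa26 it stood at 23.7, 21.0, 22.6 and 20.7 CPM, a coefficient of variation of 6.32%. All 4 Rosa26 muscles therefore lay inside the dNdK range, with dNdK 1 above them and dNdK 2 and 3 below. The log2 fold change of the means was 0.10 (SE 0.58, adjusted p = 0.981), and without dNdK 1 it was -1.26 (adjusted p = 0.300). The difference in spread between the genotypes was not tested.

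Myf6 stood at 447, 309 and 517 CPM in dNdK and 249, 414, 400 and 284 CPM in Rosa26. The ranges overlapped, with dNdK 1 and 3 above all Rosa26 muscles, and the log2 fold change was 0.22 (SE 0.25, adjusted p = 0.877). Within the low set, 2 dNdK against 2 Rosa26 muscles, Myf6 stood at 447 and 517 CPM in dNdK and 249 and 284 CPM in Rosa26, a log2 fold change of 0.69 (adjusted p = 0.461). In the high set the order was turned round, with 309 CPM in the only dNdK library and 414 and 400 CPM in Rosa26. For Myf5, its neighbour on the chromosome, dNdK 3 was the highest muscle as well.

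**Figure D2:**
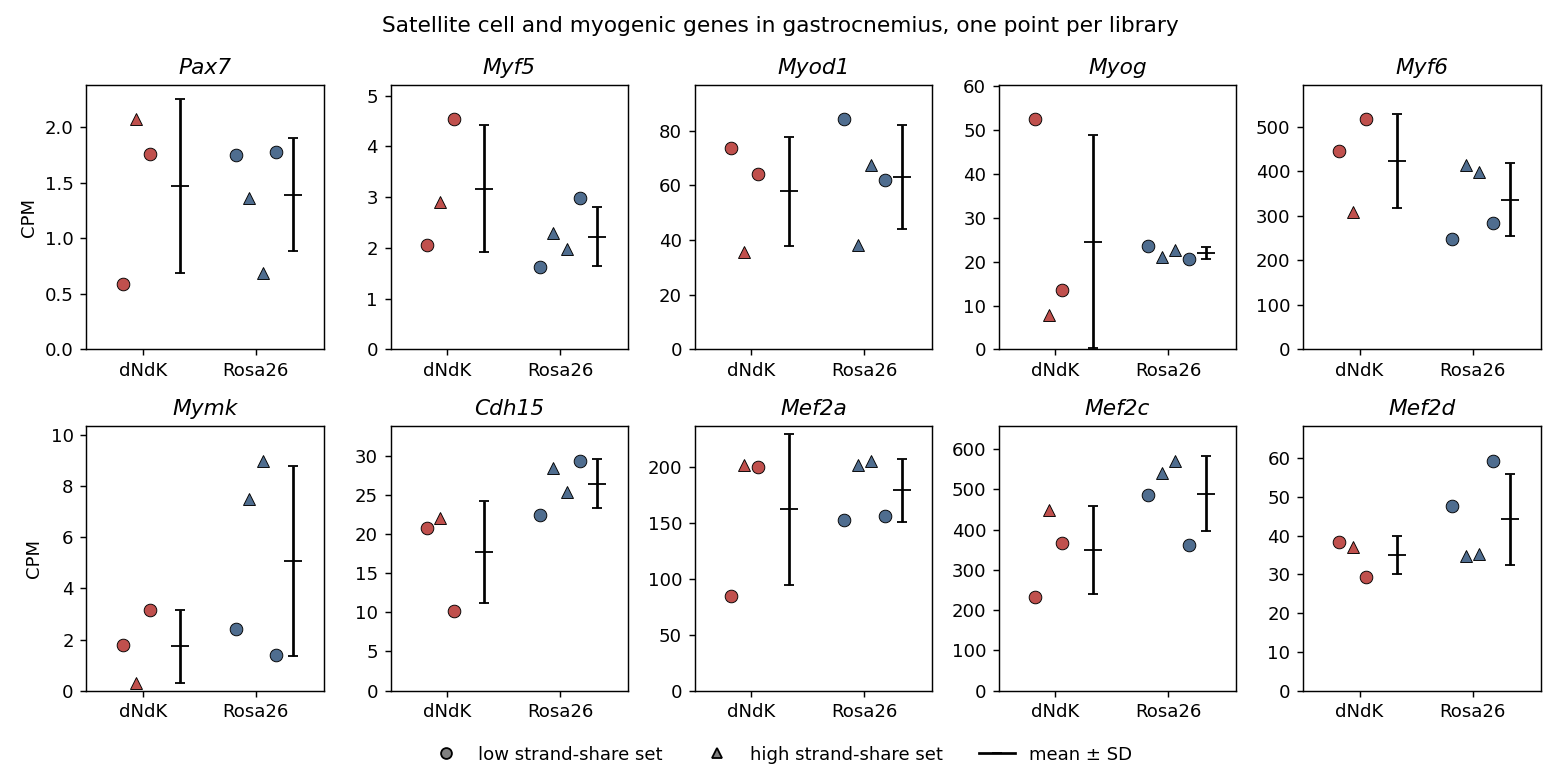
CPM of the 10 members in gastrocnemius, with dNdK left and Rosa26 right, 1 point per library (circles, low strand-share set, triangles, high set) and mean ± SD beside the points. Cdh15 shows no overlap (10.2 to 22.1 CPM in dNdK, 22.5 to 29.4 CPM in Rosa26), and Myog runs from 7.89 to 52.4 CPM in dNdK around a Rosa26 range of 20.7 to 23.7 CPM.

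Mymk, the fusogen of myoblasts, stood at 1.77, 0.282 and 3.14 CPM in dNdK and 2.42, 7.48, 8.99 and 1.40 CPM in Rosa26 gastrocnemius, from 3 to 118 reads a library. The groups overlapped, with Rosa26 2 and 3 at the top and dNdK 2 at the floor of 3 reads. The log2 fold change was -1.68 (SE 0.80, adjusted p = 0.662). With the strand-share set as a term in the fit it was -1.22 (adjusted p = 0.763). Within the low set, 2 dNdK against 2 Rosa26 muscles, it was 0.19 (adjusted p = 0.937). Within the high set it was -4.89, but this rests on the 3 reads of 1 dNdK library and is no comparison of groups. Whether the genotype difference depends on the set was not tested.

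Cdh15 was the only member whose genotypes did not overlap in muscle, where 6.66% of the genes tested did not. It stood at 20.8, 22.1 and 10.2 CPM in dNdK and 22.5, 28.5, 25.4 and 29.4 CPM in Rosa26. The gap was narrow, from 22.1 CPM in dNdK 2 to 22.5 CPM in Rosa26 1, and the lowest value was that of dNdK 3, the muscle with fat RNA. The log2 fold change was -0.67 (SE 0.32, adjusted p = 0.662). It was -0.35 without dNdK 3 and -0.30 with the fat marker level as a covariate. As summed log2 CPM that level was 124 in dNdK 3 and 44.6 to 64.6 in the other muscles. The covariate thus largely sets the same 1 library apart. The part of fat RNA in the Cdh15 estimate was not tested.

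Of the MEF2 genes, Mef2c stood at 232, 449 and 366 CPM in dNdK and 485, 540, 571 and 361 CPM in Rosa26 gastrocnemius. Only Rosa26 4 fell within the dNdK range. The log2 fold change was -0.61 (SE 0.25), the smallest p of the 10 members, without passing the test (adjusted p = 0.656). Over its 21 alternatives the estimate stayed lower in dNdK, from -0.87 to -0.38, with adjusted p from 0.244 to 0.973.

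Mef2a stood at 84.4, 202 and 199 CPM in dNdK and 153, 201, 205 and 156 CPM in Rosa26. Here 1 library, dNdK 1, lay far below the others, and the log2 fold change of -0.28 (SE 0.28, adjusted p = 0.849) was -0.02 without it. In Rosa26 the 2 libraries of the high strand-share set lay above the 2 of the low set for Mef2a, Mef2c, Myf6 and Mymk. They lay below them for Pax7 and Mef2d. The share of all genes that split in this way was not counted, so nothing about the members is read from it. Mef2d stood at 38.4, 37.0 and 29.4 CPM in dNdK and 47.6, 34.8, 35.3 and 59.4 CPM in Rosa26. The log2 fold change of Mef2d was -0.45 (SE 0.27, adjusted p = 0.731). Between the sets themselves, over all muscles with genotype in the fit, 0 of 10 members and 0.00953% of the genes were called, and the member with the smallest p was Myod1 (log2 high over low set -0.69, SE 0.27, adjusted p = 0.392).

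**Figure D3:**
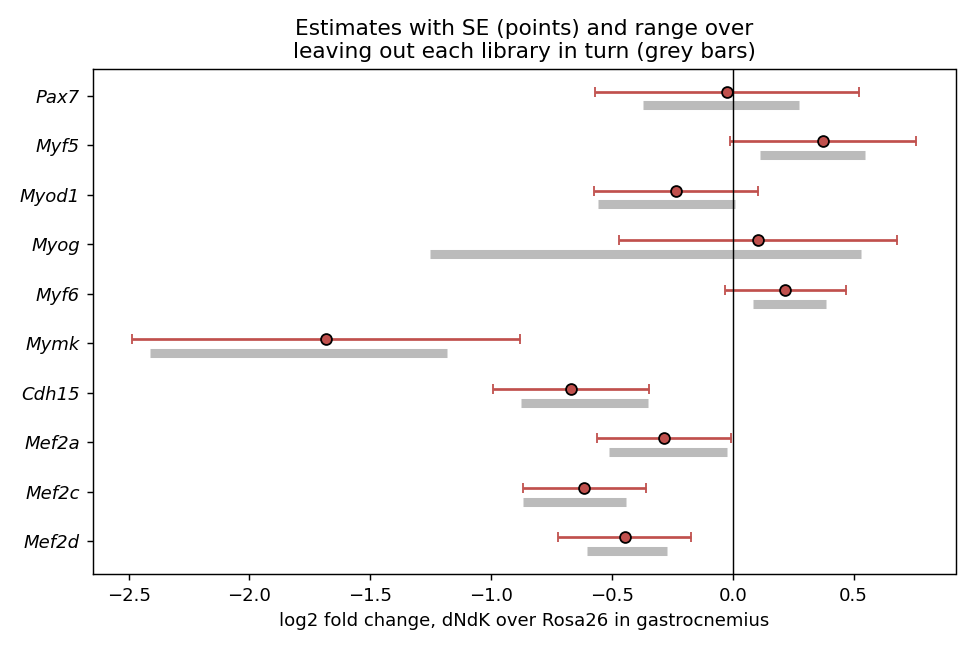
Log2 fold changes of dNdK over Rosa26 in gastrocnemius for the 10 members, as points with SE, with grey bars for the range of estimates when each of the 7 libraries was left out in turn. The Myog bar runs from -1.26 to 0.53, while the Mymk, Cdh15 and Mef2c bars stay below 0.

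Within the dNdK muscles the members did not move together. In dNdK 1, Myog was 1.36 above its mean over the 7 libraries on the log2(CPM + 0.5) scale, Myod1 was 0.34 and Myf6 0.30 above theirs, while Mef2a was -0.96, Mef2c -0.83 and Pax7 -0.76 from theirs. In dNdK 2, Mymk was -1.98, Myog -1.29 and Myod1 -0.70 from the mean. In dNdK 3, Myf5 was 0.74 and Myf6 0.51 above the mean and Cdh15 was -1.06 from it. The members did not move together in the Rosa26 muscles either. In Rosa26 1, Myod1 was 0.53 above the mean and Myf6 -0.54 from it, and in Rosa26 2 Mymk was 1.37 above and Myod1 -0.60 from it. In Rosa26 3, Mymk was 1.62 above the mean and Pax7 -0.63 from it, and in Rosa26 4 Mef2d was 0.59 above and Mymk -0.705 from it. A pattern of its own was thus not particular to the dNdK libraries.

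The ubiquitin ligase genes Fbxo32 and Trim63, which rise in wasting muscle and were chosen after their values were seen, stood at 830 and 737 CPM in dNdK 1. In dNdK 2 and 3 Fbxo32 stood at 234 and 294 CPM and in Rosa26 at 297 to 391 CPM. Trim63 stood at 333 and 415 CPM in dNdK 2 and 3 and at 295 to 477 CPM in Rosa26. So dNdK 1 was the highest muscle for both of these genes, as for Myog. Gadd45a, a stress gene that denervation induces, stood at 461, 67.0 and 585 CPM in dNdK and 118 to 374 CPM in Rosa26, and Chrna1, the acetylcholine receptor subunit, at 28.1, 14.8 and 59.9 CPM in dNdK and 21.1 to 41.9 CPM in Rosa26. For these it was dNdK 3 that was highest, so the denervation genes did not share 1 order. Summed over the synapse and denervation list, dNdK 1 and 3 were alike and the highest muscles. The sums were 2895, 1360 and 2852 CPM in dNdK 1 to 3 and 1740 to 2430 CPM in Rosa26. Fbxo32, Trim63 and Gadd45a are themselves large terms of this sum. Of the list's 19 tested genes 8 estimates were higher and 11 lower in dNdK. Slow fibre markers summed to 325 CPM in dNdK 1 and to 81.5 to 206 CPM in the other muscles. The slow myosin gene Myh7 had at most 3 reads in any muscle library. Of the 8 slow fibre genes tested 6 estimates were higher and 2 lower in dNdK. Myl2, which had the highest log2 fold change of that list, stood at 73.5 CPM in dNdK 1 and 0.365 to 16.4 CPM elsewhere in muscle. The part of these differences in the level of Myog was not tested.

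**Figure D4:**
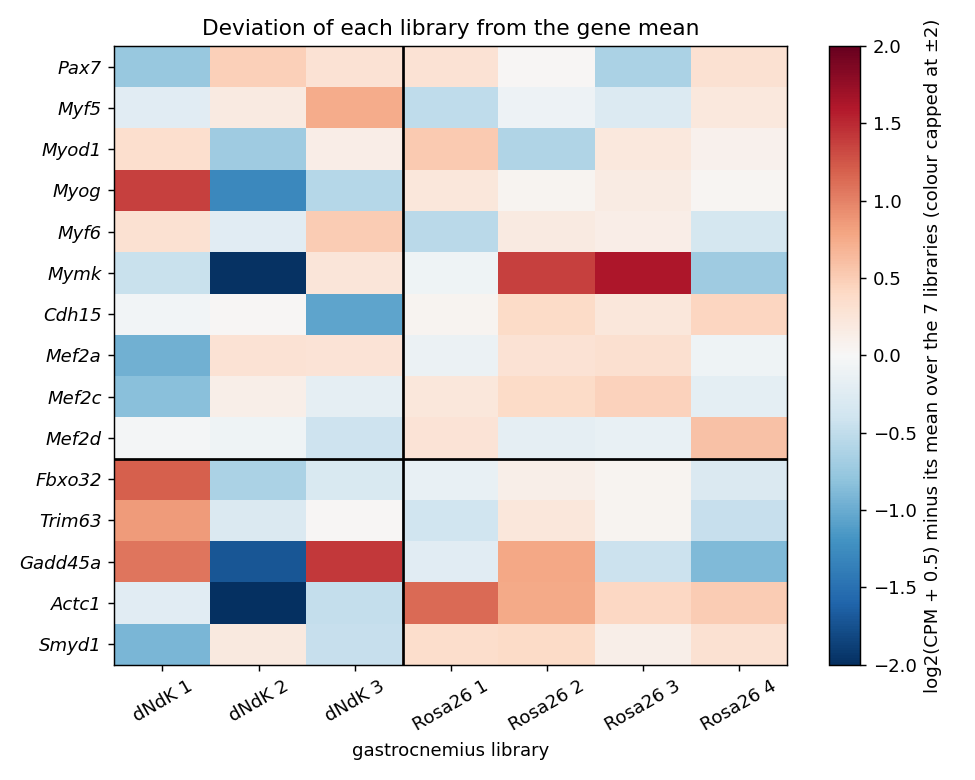
Deviation of each gastrocnemius library from the gene's mean over the 7 libraries, in log2(CPM + 0.5), for the 10 members (above the line) and 5 companion genes (below it), with dNdK libraries left of Rosa26. In dNdK 1 Myog, Fbxo32 and Trim63 are above their means (1.36, 1.20 and 0.85) and Mef2a, Mef2c and Smyd1 are below (-0.96, -0.83 and -0.91).

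In aorta the genotype comparison could be made for Mef2a, Mef2c and Mef2d, and none of the 3 passed the test, where 0.00839% of 11920 genes were called. DESeq2 called 13 genes and none of these. At an unadjusted p under 0.05 there were 713 genes (5.98%) and no member.

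Mef2a stood at 94.5 and 110 CPM in dNdK and 113, 110, 89.3 and 73.7 CPM in Rosa26 aorta. Both dNdK values fell inside the Rosa26 range, with a log2 fold change of 0.23 (SE 0.22, edgeR adjusted p = 0.817). Mef2c stood at 16.6 and 14.95 CPM in dNdK and 18.7, 38.6, 20.2 and 11.0 CPM in Rosa26, a log2 fold change of -0.34 (SE 0.42, adjusted p = 0.855). The high value was that of Rosa26 2, where B and plasma cell markers summed to 488 CPM and the B cell antigen Ms4a1 stood at 198 CPM, against at most 37.6 CPM in the other aortas. Without Rosa26 2 the Mef2c estimate was 0.05. Mef2c is also used by B cells, and the part of such cells was not tested. Mef2d stood at 18.9 and 14.5 CPM in dNdK and 12.9, 19.8, 20.2 and 18.9 CPM in Rosa26, a log2 fold change of 0.02 (SE 0.30, adjusted p = 0.988).

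By mean CPM, which is not TMM-scaled, the order of the 4 groups was Rosa26 gastrocnemius, dNdK gastrocnemius, Rosa26 aorta and dNdK aorta for Mef2c and Mef2d. For Mef2a the 2 aorta groups stood the other way round, at 102 ± 11.2 CPM in dNdK (SD, n = 2) and 96.5 ± 18.5 CPM in Rosa26. The genotypes of 1 tissue did not differ beyond their spread by the tests above, and their order in aorta is not firm, since the fitted estimate of Mef2d was 0.02, and that of Mef2c 0.05 without Rosa26 2. Gastrocnemius dNdK overlapped with aorta for Mef2a alone, through dNdK 1, and that step of the order was not tested. The genotype effect was not shown to differ between the tissues. The difference, gastrocnemius minus aorta, was -0.53 for Mef2a (SE 0.38, edgeR adjusted p = 0.699), -0.30 for Mef2c (SE 0.49, adjusted p = 0.880) and -0.50 for Mef2d (SE 0.40, adjusted p = 0.729), and 0 of 12318 genes were called, with 1044 (8.48%) at an unadjusted p under 0.05, none of the 3 among them, and 6 called by DESeq2.

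Companion genes of the same programme were described by list, and in gastrocnemius no gene of any list passed the genotype test, as 0% of all genes did. Among 19 tested genes of the satellite cell surface, quiescence and Notch signalling, 12 estimates were higher and 7 lower in dNdK (median 0.19 on the log2 scale). Notch1, the receptor that keeps satellite cells quiescent, stood at 19.1, 14.6 and 34.6 CPM in dNdK and 9.01 to 13.5 CPM in Rosa26 (log2 fold change 0.83, SE 0.29, adjusted p = 0.656). Vcam1, an adhesion molecule of satellite and endothelial cells, stood at 11.9, 2.63 and 22.9 CPM in dNdK and 3.50 to 5.27 CPM in Rosa26 (1.35, SE 0.54). Cxcr4, the chemokine receptor, stood at 12.1, 4.89 and 7.67 CPM in dNdK and 3.57 to 5.72 CPM in Rosa26 (0.84, SE 0.38). The 3 genes are expressed by endothelium as well, and endothelial markers summed to 369 to 491 CPM in dNdK and 263 to 368 CPM in Rosa26. These ranges all but met, at 369 CPM in dNdK 2 and 368 CPM in Rosa26 3. The part of endothelial RNA in them was not tested.

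Of 15 genes of fusion and of developmental isoforms, 6 estimates were higher and 9 lower (median -0.34). Actc1, the cardiac actin that young fibres use, stood at 310, 83.2 and 258 CPM in dNdK and 793, 611, 481 and 515 CPM in Rosa26 (-1.58, SE 0.43, adjusted p = 0.656). Its genotypes did not overlap, as for 6.66% of the genes tested. Cav3, the caveolin of the fibre membrane, had -0.57 (SE 0.25) and Myh8, the perinatal myosin, -0.71 (SE 0.45, adjusted p = 0.734). The summed level of this list, 268 to 538 CPM in dNdK and 689 to 988 CPM in Rosa26, followed Actc1. The developmental myosin gene Myh3 stood at 1.77 CPM at most in any muscle.

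Of 12 partners and inhibitors of the bHLH factors, 9 estimates were higher and 3 lower (median 0.25). Twist1, an inhibitor of MyoD, had a log2 fold change of 0.70 (SE 0.28) and Id3, which binds E proteins, 0.73 (SE 0.32), both at adjusted p = 0.656, and the bHLH repressor gene Bhlhe40 had -0.44 (SE 0.29, adjusted p = 0.737). Id3 was highest in dNdK 1, at 135 CPM, against 43.6 to 74.0 CPM in the other muscles. Of 23 regulators and partners of MEF2, 7 estimates were higher and 16 lower (median -0.32). Ppp3ca, the calcineurin subunit, had -0.58 (SE 0.20), Smyd1, a muscle methyltransferase and MEF2 target, -0.74 (SE 0.27) and Hdac5, a deacetylase that represses MEF2, -0.54 (SE 0.22), each at adjusted p = 0.656. Smyd1 stood at 179, 386 and 245 CPM in dNdK and 364 to 442 CPM in Rosa26, with its low in dNdK 1, as for Mef2a and Mef2c.

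Of 19 genes known as MEF2 or MyoD targets, 6 estimates were higher and 13 lower (median -0.21). Besides Smyd1, the M-band genes Myom2 and Myom1 had the smallest p, with -0.51 (SE 0.19) and -0.50 (SE 0.22), at adjusted p = 0.656. Of 19 genes of the synapse and of denervation, 8 estimates were higher and 11 lower (median -0.16). The sodium channel gene Scn4a had -0.57 (SE 0.31, adjusted p = 0.701), Ache, the synaptic esterase, -0.43 (SE 0.30, adjusted p = 0.761) and Gadd45a 0.68 (SE 0.62, adjusted p = 0.83). At an unadjusted p under 0.05 stood 2 satellite cell and Notch genes, 2 fusion genes, 2 bHLH partners, 4 MEF2 regulators, 3 targets and 0 synapse genes, where 7.55% of all genes did.

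In aorta no gene of these lists passed the genotype test over the 6 libraries either. Of 18 satellite cell and Notch genes 5 estimates were higher and 13 lower in dNdK, with Vcam1 at a log2 fold change of -1.03 (SE 0.48), Sdc3, a syndecan, at -0.70 (SE 0.36) and Hey1, a Notch target, at -0.89 (SE 0.55). Both dNdK aortas are in the high strand-share set, and within that set, 2 dNdK against 2 Rosa26 aortas, the list had 10 estimates higher and 8 lower. Hey1 stood at 13.5 and 11.4 CPM in dNdK, against 14.7 and 11.9 CPM in Rosa26 1 and 2 of the high set and 38.5 and 35.0 CPM in Rosa26 3 and 4 of the low set. Within the high set its log2 fold change was 0.09 (SE 0.30), that of Sdc3 -0.22 (SE 0.24) and that of Vcam1 -1.05 (SE 0.46). Endothelial markers summed to 1173 and 1224 CPM in dNdK and 1227 to 3001 CPM in Rosa26, with 8 of 9 estimates lower over all 6 aortas and 4 of 9 within the high set. Macrophage markers summed to 324 and 259 CPM in dNdK and 309 to 775 CPM in Rosa26, with 7 of 7 estimates lower, and T and NK cell markers to 18.5 and 16.4 CPM in dNdK and 9.70 to 143 CPM in Rosa26, with 8 of 8 lower. The part of these cells in the companion genes was not tested. Of 12 bHLH partners 6 were higher and 6 lower, with the E protein gene Tcf3 at -0.81 (SE 0.27), Id3 at -1.14 (SE 0.55) and Id1 at -1.04 (SE 0.58), of which Tcf3 had -0.89, Id3 -0.21 and Id1 0.02 within the high set. Of 22 MEF2 regulators 13 were higher and 9 lower, with Nfatc1, the calcineurin target, at -1.07 (SE 0.33) and Tead1 at 0.65 (SE 0.32). Over the 6 aortas all had an adjusted p of 0.757, as had the genes that follow. Within the high set, where 1.54% of 11603 genes were called, Nfatc1 was the only gene of these 6 lists called, at -1.32 (SE 0.24, edgeR adjusted p = 0.0403). It stood at 47.1 and 46.4 CPM in dNdK and 107 and 159 CPM in Rosa26. In the same fit 5 of 6 B and plasma cell, 6 of 8 T and NK cell and 3 of 7 macrophage markers were called lower. The part of these cells in Nfatc1 was not tested. Of 11 fusion genes 5 were higher and 6 lower, with the imprinted gene Peg3 at -0.83 (SE 0.39), the junctional adhesion molecule Jam2 at 0.47 (SE 0.22) and Kirrel at -0.65 (SE 0.42). Of 16 MEF2 or MyoD targets 12 were higher and 4 lower, with the insulin-responsive glucose transporter Slc2a4 at 0.87 (SE 0.27), the cell cycle inhibitor Cdkn1a at 0.74 (SE 0.25) and the nuclear receptor Nr4a1 at -1.79 (SE 0.92), and within the high set 5 were higher and 11 lower, with Nr4a1 at -0.40. Of 12 synapse genes 7 were higher and 5 lower, with the acetylcholine receptor subunit Chrnb1 at -0.91 (SE 0.39), Runx1, a factor that denervation induces, at -0.76 (SE 0.40) and Colq, the collagen tail of the esterase, at -2.65 (SE 1.61), and within the high set 1 was higher and 11 lower. Heart muscle markers turned round in the same way, with 9 of 9 estimates higher over the 6 aortas and 0 of 9 within the high set. They summed to 17.1 and 2525 CPM in dNdK and to 2570, 1141, 28.8 and 14.5 CPM in Rosa26 1 to 4. The part of heart RNA in the target and synapse lists was not tested. At an unadjusted p under 0.05 stood 1 bHLH partner, 2 MEF2 regulators, 2 targets and 1 synapse gene, where 5.98% of all genes did.

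Between the tissues, calls were counted by companion list, and the counts include genes too low in aorta to be tested there. These passed the filter through gastrocnemius, which fixed their direction. They were Mstn, Chrna1 and Klhl40 of the targets, Chrna1, Chrnd, Chrne, Musk, Rapsn and Ache of the synapse list and Vgll2 of the regulators. Pax3 and Chodl of the satellite cell list and Igfn1 and Myh8 of the fusion list were further ones. Of 19 MEF2 or MyoD targets 16 were higher in Rosa26 gastrocnemius than in Rosa26 aorta and none was lower, and of 18 synapse genes 16 were higher and 1 lower. Of 23 MEF2 regulators 19 were higher and 3 lower. Set against 27.5% of all genes called higher and 31.0% called lower, the partners and inhibitors of the bHLH factors had 0 higher and 6 lower of 12, among them Id2 at -1.97 (SE 0.54, edgeR adjusted p = 0.00999) and Id1 at -1.72 (SE 0.46, adjusted p = 0.00827). Id1 averaged 39.9 ± 14.8 CPM in Rosa26 gastrocnemius and 235 ± 137 CPM in Rosa26 aorta (SD, n = 4 each). The satellite cell and Notch list had 5 higher and 7 lower of 19, with Pax3 and Chodl higher and Notch1 (-1.70, SE 0.30) lower, and the fusion list 5 higher and 4 lower of 13, with Igfn1 and Cav3 higher. Of the MEF2 regulators Camk2a, among the widest gaps of its list, was called higher as well. Vgll2, Chrna1, Chrne and Mstn are among the genes whose direction the filter fixed. Mstn (myostatin) stood at 116 ± 26.2 CPM in gastrocnemius and at most 0.161 CPM in aorta.

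Over the 7 muscle libraries, each member was set beside the tested genes with a like spread, by the root mean square difference of their centred log2 CPM. The nearest were Katnal2 and Zfp13 to Pax7 (0.155 and 0.162), Actr3 and Dck to Myf5 (0.0895 and 0.124) and Zfp142 and Tbc1d16 to Myod1 (0.137 and 0.149). To Myog they were Sept3 and Aff3 (0.306 and 0.310), to Myf6 Fndc10 and Tnfrsf14 (0.102 and 0.112) and to Mymk Mybph and Aldh3a1 (0.728 and 0.748). To Cdh15 they were Hmcn2 and Epdr1 (0.133 and 0.160), to Mef2a Nfe2l2 and Ei24 (0.0769 and 0.0848), to Mef2c Herpud2 and Tsc22d2 (0.130 each) and to Mef2d Gcc1 and Cacna2d1 (0.0651 and 0.0727). No member was the nearest gene of another. With 755 to 5673 candidates for each member and 7 libraries, close matches can be found for a gene by number of candidates alone, and these are a description of the libraries. Mymk, with a SD of 1.46, had no match as close as those of the other members.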

How the data were processed

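The deposited tables hold raw read counts per gene for 1 library each, made by the authors from amplicon libraries of the mouse transcriptome read on an Ion Torrent sequencer, per the labels' protocols. Per the submitters' processing notes STAR 2.5.2b, edgeR 3.28.1 and limma 3.42.2 were used on mm10 (GRCm38.p6). The column of reads on either strand was used, and lines that name no gene were left out, so that genes made up 86.7% to 91.4% of a table. Groups came from the labels. After filterByExpr (min.count 10, min.total.count 15) and TMM scaling, counts were tested with the quasi-likelihood test of edgeR 4.0.16 in R 4.3.3, in the 7 gastrocnemius, the 6 aorta or the 8 Rosa26 libraries, and in all 13 for the difference between tissues. Adjustment was by Benjamini-Hochberg over the genes of each fit, with a threshold of 0.05. The SE of a log2 fold change was derived from it and from F. CPM are plain counts scaled to the reads in genes, without TMM. The scripts were tested on simulated data.

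The members and lists were chosen with earlier results of these data known. The text names the members and Foxm1, up to 3 tested genes with the smallest p in each companion list and genotype comparison, up to 2 called genes with the widest gap between tissues, marker genes where a result of the members touches them, and the 2 genes nearest to each member, with log2 CPM at a prior count of 2. A gene that this rule names is not reported here. Of the denervation list Fbxo32, Trim63 and Chrna1, and in other lists Myh3, Mstn, Notch1 between tissues, Myl2 and Pax3, were chosen after their values were seen. Alternatives were other scalings, DESeq2 1.42.0, other filters (none, min.count 50), either strand alone, each library left out, blocks, covariates for fat and heart markers and, added after seeing the data, library size alone and the strand-share sets. The labels do not say whether numbers in the titles pair animals. Among Rosa26 libraries 3 numbers in the deposited library names occur in both tissues. Deviations of these pairs, which also share a strand-share set, had r of 0.241, 0.280 and 0.260, and with that number as a block the pairing changed no member's call. A further such number, 142, is shared by gastrocnemius dNdK 3 and aorta dNdK 1, and the fit over all 13 libraries has no block for these 4 pairs.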

Additional observations from a re-analysis of the deposited data

How the results depend on the processing

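Between the tissues all 202 alternative values of the members kept direction and call, which the filter fixed for all members but the MEF2 genes. In gastrocnemius 188 of 206 did. Pax7 turned to 0.13 with library size alone, 0.49 on the second strand, 0.94 within the high set and 0.14 with the replicate block, and ran from -0.37 to 0.28 with a library left out. Myog turned to -0.092 on the second strand, -0.47 with the replicate block, -0.23 with the set as a term and -1.53 within the high set (-1.26 to 0.53 with a library left out). Myf6 was -0.16 on the first strand and -0.47 within the high set, where Mef2d was 0.010. Mymk was 0.19 within the low set. Myod1 ran from -0.56 to 0.010 with a library left out. Genes called were 7 by DESeq2, 39 within the high set (1 member, Mymk, from 3 reads in the lone dNdK library, which is assumed to vary like the others) and 0 to 3 with a library left out, the 3 without dNdK 1, against 0.

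In aorta 51 of 57 values kept theirs. Mef2d was -0.11 with library size alone and -0.16 on the first strand, and ran from -0.18 to 0.21 with a library left out. Mef2c ran from -0.52 to 0.050 so, and was 0.19 without the 3 libraries with heart RNA. Genes called were 13 by DESeq2, 0 on either strand alone, 163 with the replicate block, 0 with all 13 libraries in 1 fit, 30 without heart RNA, 179 within the high set and 0 to 1 with a library left out, against 1. For the difference between tissues DESeq2 called 6 genes, and Mef2c was 0.012 with library size alone. The causes were not tested. Title numbers had r of 0.212, -0.043 and -0.008 in gastrocnemius and -0.348 and 0.191 in aorta, and their block changed no member's call. Depth limits Pax7, Myf5 and Mymk, with 3 to 118 reads a muscle library.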
